A study of Mus musculus with 20 samples.

Results

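Acod1, Il1b, Arg1, G0s2, Tyrobp, Fcer1g, Clec7a, Clec4d and Clec4e are 9 genes of activated myeloid cells, out of 55471 genes in the count table. They were chosen by their read counts in these same 20 libraries, that is, by their levels in the 4 groups and by the way they moved together from library to library. Their differences between groups and their correlations are therefore given as a description, with no test. All 9 were found in the table by gene symbol.

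Acod1 encodes the mitochondrial enzyme that makes itaconate from a tricarboxylic acid cycle intermediate, and Il1b encodes the precursor of the inflammatory cytokine interleukin 1 beta; both are switched on in macrophages and neutrophils by microbial or damage signals. Arg1 encodes arginase, which splits arginine into ornithine and urea, and G0s2 encodes an inhibitor of the lipase that starts the breakdown of stored fat. Tyrobp and Fcer1g encode small membrane adaptors that carry an immunoreceptor tyrosine-based activation motif (ITAM), the docking site through which many myeloid receptors reach the kinase Syk. Clec7a encodes Dectin-1, a C-type lectin receptor for fungal beta-glucan with a signalling motif of its own, whereas Clec4d and Clec4e encode MCL and Mincle, lectin receptors for microbial glycolipids that signal through the Fcer1g adaptor.

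RNA was sequenced from back skin and pancreas of wild-type (WT) mice, with 5 libraries in each of 4 groups. The skin mice, 4 to 6 weeks old at the start, received either topical DNFB, a contact allergen, dissolved in acetone, or acetone alone, 3 times a week over 22 days, and the study describes the skin RNA as coming from epidermal keratinocytes. The pancreas mice received caerulein, a peptide that overstimulates the enzyme-secreting acinar cells, at 50 μg/kg, or the carrier phosphate-buffered saline (PBS), in 6 hourly injections a day on 3 days a week for 3 weeks. The WT mice of the study were C57BL/6, and the DNFB mice had been sensitised to the allergen on the abdomen beforehand. The labels give no age for the pancreas mice, and nothing in them says that the libraries of a group came from separate mice, so the spread between libraries may be partly technical.

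Library totals ran from 791491 to 2232039 counts. Between 37.8% and 94.3% of each total fell on 11 genes that share sequence with the repeat-derived predicted genes Gm10800, Gm10801 and Gm21738 (called satellite-like here), which left 70021 to 1074202 counts for all other genes. At these totals 3 counts, the limit that a count of 0 allows, correspond to 0.585 to 9.67 normalised CPM (the CPM value of a count after TMM scaling within each tissue), and this limit, like all intervals below, covers counting error only. Acetone libraries 11 and 12 stood apart from acetone libraries 1, 2 and 3 in having 1074202 and 938931 other counts, against at most 153197. Caerulein library 10 held 82.7% of the counts of the 9 genes in its group and was the highest caerulein library for 9 of the 9. The main values that rest on these 3 libraries are given with and without them. Keratinocyte keratin Krt14 averaged 617 ± 579 normalised CPM in acetone and 817 ± 680 in DNFB skin (SD, n = 5 each), and acinar markers summed to at least 9778 normalised CPM in every PBS library. Skin libraries also held RNA of Col3a1, a fibroblast collagen gene, at 107 ± 80.0 in acetone and 29.1 ± 7.47 in DNFB skin.

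The stretches just upstream of 4 of the genes are shown because these genes are described together below: Acod1 and Il1b as the pair that give the group its name, and Clec4d and Clec4e as neighbours on chromosome 6, 6523 bases apart and transcribed towards each other. The sequences are from RefSeq (GRCm38.p6), on the gene's own strand, and cover the 250 bases before the RefSeq start. For Acod1 the last 35 of these bases are left out because the gene model used for counting already transcribes them. Capitals mark matches, on either strand, to a TATA box (TATAAA), a PU.1 core (GAGGAA), an AP-1 site (TGANTCA) or a C/EBP site (TTGCNNAA). They also mark matches to part of an interferon-response element (GAAANNGAA) or to the NF-kB consensus.
Acod1, chr14:103046762-103046976, plus strand: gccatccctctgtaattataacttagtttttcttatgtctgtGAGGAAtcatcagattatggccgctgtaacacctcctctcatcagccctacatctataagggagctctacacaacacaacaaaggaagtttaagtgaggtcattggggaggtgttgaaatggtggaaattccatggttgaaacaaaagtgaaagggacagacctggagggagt
Il1b, chr2:129371140-129371389, minus strand: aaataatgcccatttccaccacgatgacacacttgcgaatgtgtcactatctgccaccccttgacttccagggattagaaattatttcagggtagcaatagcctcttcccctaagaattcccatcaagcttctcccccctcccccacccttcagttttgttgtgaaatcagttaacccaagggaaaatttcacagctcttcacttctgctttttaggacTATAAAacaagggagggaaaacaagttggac
Clec4d, chr6:123261857-123262106, plus strand: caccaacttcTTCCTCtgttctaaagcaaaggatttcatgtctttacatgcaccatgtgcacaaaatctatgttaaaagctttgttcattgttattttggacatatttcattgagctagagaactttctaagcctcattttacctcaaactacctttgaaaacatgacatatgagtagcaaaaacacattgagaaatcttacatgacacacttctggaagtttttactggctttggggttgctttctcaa
Clec4e, chr6:123289872-123290121, minus strand: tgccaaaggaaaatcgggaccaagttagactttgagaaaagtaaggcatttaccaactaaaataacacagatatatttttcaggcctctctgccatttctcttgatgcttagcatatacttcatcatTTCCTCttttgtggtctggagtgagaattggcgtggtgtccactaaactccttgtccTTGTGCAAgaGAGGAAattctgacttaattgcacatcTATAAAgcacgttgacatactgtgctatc

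RefSeq gave such a window for 7 of the 9 genes, and the first listed window was used for Clec7a, which has more than 1. A TATA box was found in 3 of the 7, against 12.4% of all 32851 windows of the same length. In Acod1, Il1b and Clec4e it began 28, 31 and 29 bases before the RefSeq start, in Acod1 within the bases not printed. The PU.1 core was found in 4 of the 7, namely Acod1, Clec4d, Clec4e and Clec7a, against 23.3% of all windows, and Clec4e held it at 2 positions. The C/EBP letters were found in Clec4e alone (9.56% of all windows) and the interferon-response letters in G0s2 alone (7.13%). The G0s2 match lies within the last 29 bases of its window, which the gene model used for counting already transcribes. Neither the AP-1 letters (6.75% of all windows) nor the NF-kB consensus (7.25%) were found in the 7 windows. These are matches of letters, and binding was not measured.

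In DNFB skin all 9 genes had counts in 5 of 5 libraries, and for 6 of the 9 (Acod1, Il1b, Arg1, G0s2, Clec7a and Clec4d) the lowest DNFB library lay above the highest acetone library. Of the 43251 genes with a count in skin, 0.733% were separated in that direction. In caerulein pancreas this was so for 1 of the 9, Tyrobp, against 0.864% of 38895 genes. The filter on low counts was passed by 8 of the 9 in skin and by 1, Fcer1g, in pancreas. The edgeR quasi-likelihood test, with p-values adjusted over all genes tested, called 1 of the 8 higher in DNFB skin, Acod1, where 0.0275% of 7265 genes were called higher, and 0 of 1 in pancreas, where 8.14% of 946 were. DESeq2, run without the edgeR filter but with its own default filter, gave an adjusted p to 23116 genes in skin and 8618 in pancreas. It called 6 of the 9 higher in skin (Acod1, Il1b, Arg1, G0s2, Clec7a and Clec4d), against 0.164% of these genes. In pancreas it called 3 (Acod1, Tyrobp and Fcer1g), against 7.44%. The edgeR test with no filter called 5 in skin, against 0.0925% of 43251 genes higher, and 7 in pancreas, against 3.18% of 38895. With 1 library left out in turn, edgeR called 0 to 5 of the genes in skin, with 0 in 6 of 10 fits, and 0 to 1 in pancreas. Over all genes these fits called 0 to 19 of 7598 to 8982 tested genes higher in skin. In pancreas they called 11 to 192 of 975 to 1620. Because the genes were chosen on these comparisons, nothing is read from these counts.

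**Figure D1:**
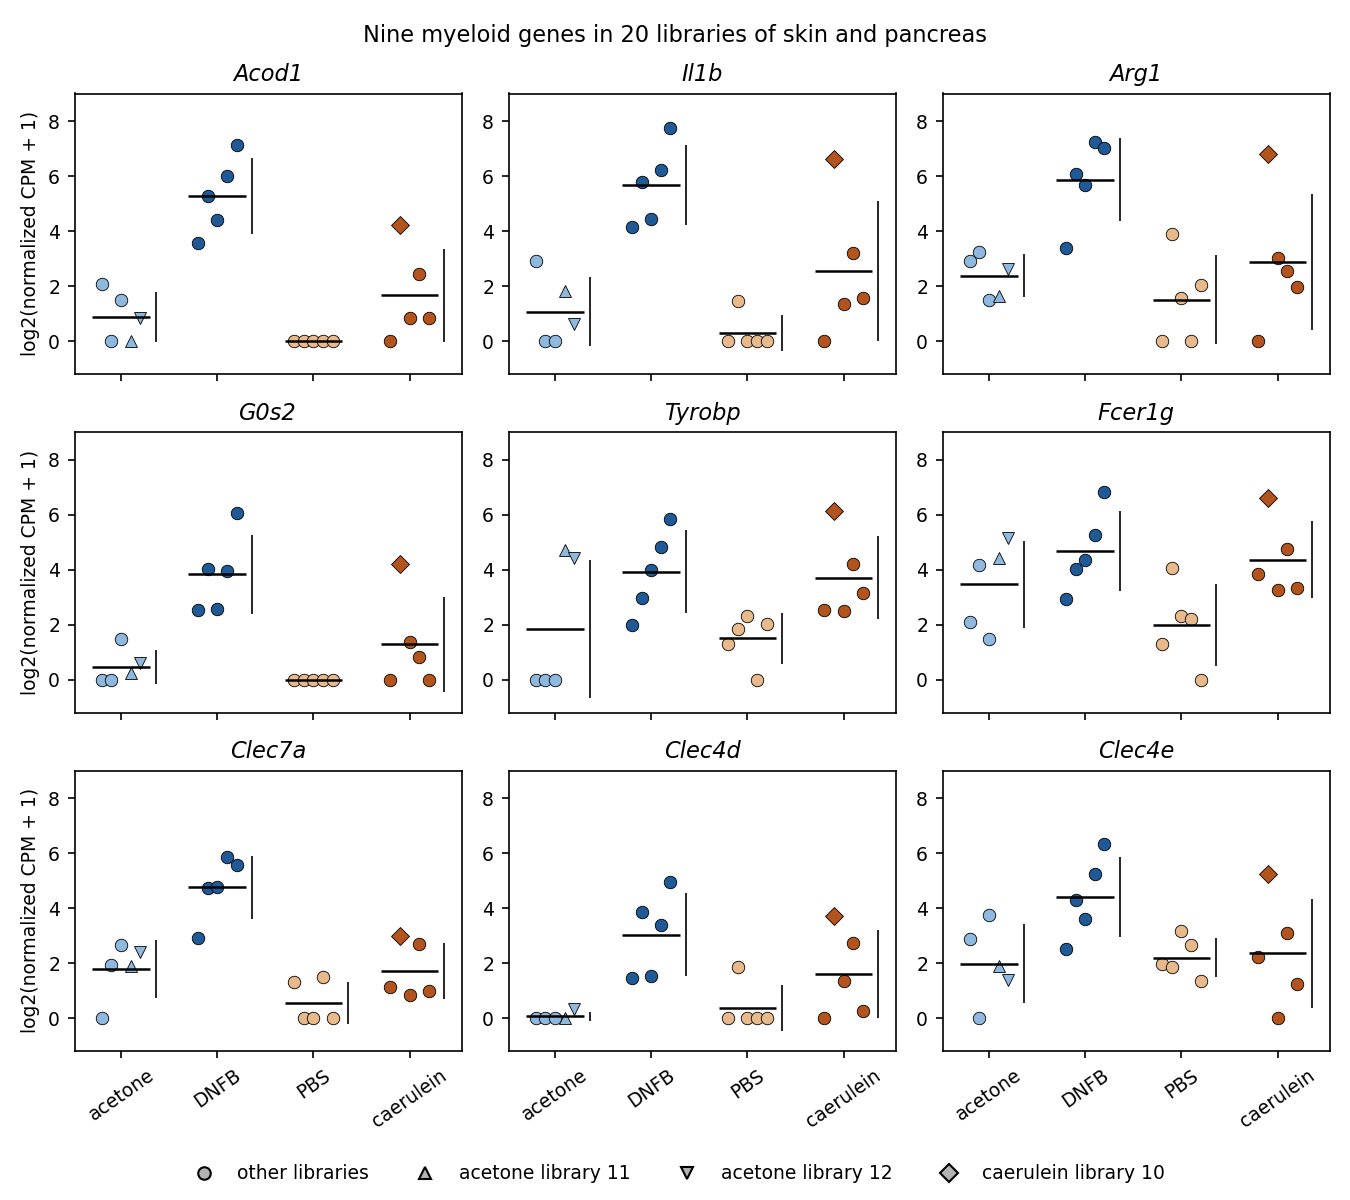
Level of each of the 9 genes in each library, as log2(normalised CPM + 1), by group (acetone and DNFB skin, PBS and caerulein pancreas, each scaled within its tissue; each point is 1 library, horizontal lines are means and vertical lines ± 1 SD, n = 5). DNFB points lie above all acetone points for 6 genes, Tyrobp overlaps through acetone libraries 11 and 12 and Fcer1g through these and library 2, and caerulein library 10 is the highest caerulein point in every panel. The mean of Clec4e in caerulein against PBS changed sign with the scaling used.

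Acod1 had 18, 22, 54, 160 and 123 counts in DNFB libraries 4, 5, 6, 13 and 14, and 1, 0, 1, 0 and 3 counts in acetone libraries 1, 2, 3, 11 and 12. This was 53.6 ± 50.7 against 1.16 ± 1.36 normalised CPM (SD, n = 5 each), a fitted log2 fold change of 6.26 with a standard error of 1.03. The itaconate enzyme was thus at 0 to 3 counts in all acetone libraries, the deep ones included, and present in every DNFB library. In pancreas it was at 0 in 5 of 5 PBS libraries and had 0, 90, 1, 17 and 4 counts in caerulein libraries 9, 10, 18, 19 and 20. Against 3 counts over the PBS group, and with the caerulein counts taken as exact, this was at least 8.19-fold higher. Without caerulein library 10 it was at least 2.34-fold higher, on 22 counts of which 17 were in library 19.

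Il1b had 28, 32, 56, 189 and 190 counts in the DNFB libraries, in the order above, and 2, 0, 0, 13 and 2 in the acetone libraries. Its means were 75.6 ± 79.8 and 1.90 ± 2.75 normalised CPM (SD, n = 5 each), with a fitted log2 fold change of 5.47 and a standard error of 0.97. The cytokine followed Acod1 in skin, with no overlap between the groups and with DNFB libraries 13 and 14 the highest. In pancreas it had 2 counts over the PBS group, both in library 8, and 0, 493, 2, 32 and 10 counts in the caerulein libraries. The pooled ratio of caerulein to PBS was 58.9 with a 95% exact counting interval of 16.2 to 488, and 7.03 (1.83 to 59.8) without library 10, which held 91.8% of the group's Il1b counts.

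Arg1 had 16, 39, 134, 378 and 114 counts in the DNFB libraries and 2, 3, 1, 11 and 19 in the acetone libraries. The fitted log2 fold change was 4.21 with a standard error of 0.78, from means of 80.2 ± 56.8 and 4.80 ± 2.86 normalised CPM (SD, n = 5 each). Per kilobase of exon, arginase had a higher mean level in acetone skin (1.23 normalised CPM) than Acod1 (0.265) or Il1b (0.586), and still no acetone library reached the lowest DNFB library. In pancreas Arg1 had 0, 16, 1, 0 and 2 counts in PBS libraries 7, 8, 15, 16 and 17 and 0, 562, 9, 19 and 15 in the caerulein libraries. Its pooled ratio was 6.99 (4.44 to 11.7) with library 10 and 0.723 (0.412 to 1.31) without it, so the higher pooled level in caerulein pancreas rested on that library.

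G0s2, the lipase inhibitor, had 8, 9, 13, 37 and 59 counts in the DNFB libraries and 0, 0, 1, 1 and 2 in the acetone libraries. That was 21.0 ± 25.5 against 0.502 ± 0.747 normalised CPM (SD, n = 5 each), with a fitted log2 fold change of 5.36 and a standard error of 1.01. The groups did not overlap, and DNFB library 14 was the highest by a wide margin on the CPM scale at 65.8. In pancreas G0s2 was at 0 in 5 of 5 PBS libraries, and the caerulein libraries had 0, 88, 2, 3 and 0 counts. This was at least 6.80-fold higher against 3 counts over the PBS group, but the 4 caerulein libraries other than 10 held 5 counts between them and allow no such bound.

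The adaptors Tyrobp and Fcer1g did not follow this pattern in skin. Tyrobp had 5, 4, 40, 70 and 51 counts in the DNFB libraries and 0, 0, 0, 128 and 77 in the acetone libraries. Its pooled ratio of DNFB to acetone was 0.995 (0.807 to 1.22) over all libraries and at least 8.27-fold without acetone libraries 11 and 12, against 3 counts over the remaining 3. Fcer1g had 11, 9, 52, 96 and 100 counts in the DNFB libraries and 1, 6, 1, 104 and 129 in the acetone libraries. In normalised CPM, however, Fcer1g in acetone library 2, on 6 counts, was close to its level in library 11, whereas Tyrobp was at 0 there. By counts, both adaptors were most abundant in acetone libraries 11 and 12, the same 2 that were almost free of Acod1, G0s2 and Clec4d. The pooled ratio of Fcer1g was 1.33 (1.12 to 1.60) with all libraries and 4.89 (2.44 to 11.4) without those 2. Fitted log2 fold changes were 0.87 with a standard error of 0.85 for Tyrobp and 1.16 with a standard error of 0.75 for Fcer1g.

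In pancreas the adaptors and Clec7a were the genes detected in 5 of 5 caerulein libraries. Tyrobp had 4, 349, 6, 68 and 40 counts in the caerulein libraries and 1, 3, 2, 0 and 2 in the PBS libraries, and its normalised levels did not overlap between the groups. Fcer1g had 11, 489, 11, 100 and 46 counts in the caerulein libraries and 1, 18, 2, 2 and 0 in the PBS libraries, where library 8 reached the caerulein range. The pooled ratio of caerulein to PBS without library 10 was 4.71 (2.31 to 11.2) for Tyrobp, from 12.8 (6.45 to 29.9) with it, and 2.33 (1.504 to 3.78) for Fcer1g, from 6.27 (4.14 to 9.96). There were 0.851 Tyrobp counts per Fcer1g count in acetone, 0.634 in DNFB, 0.348 in PBS, on 31 counts, and 0.711 in caerulein libraries.

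The beta-glucan receptor Clec7a had 11, 15, 70, 144 and 42 counts in the DNFB libraries and 0, 1, 3, 14 and 16 in the acetone libraries. Means were 32.3 ± 19.6 and 3.04 ± 2.02 normalised CPM (SD, n = 5 each), with a fitted log2 fold change of 3.24 and a standard error of 0.64, and the groups did not overlap. The annotation used for counting lists the gene as a polymorphic pseudogene. In pancreas Clec7a had 1, 35, 1, 21 and 5 counts in the caerulein libraries, against 2 counts over the PBS group. The pooled ratio was 6.91 (1.84 to 58.3), and 4.47 (1.13 to 38.7) without library 10.

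Clec4d had 3, 8, 5, 24 and 27 counts in the DNFB libraries and a single count, in library 12, over the acetone group. Its pooled ratio was 80.4 with a wide counting interval of 13.9 to 3222, and it did not pass the filter. Clec4e had 8, 11, 30, 95 and 71 counts in the DNFB libraries and 2, 0, 7, 14 and 6 in the acetone libraries, a fitted log2 fold change of 2.90 with a standard error of 0.83. The 2 neighbouring receptors thus differed in acetone skin, where Clec4e was detected in 4 of 5 libraries and Clec4d in 1. There were 0.0345 Clec4d counts per Clec4e count in acetone and 0.312 in DNFB skin.

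In caerulein pancreas Clec4d had 0, 61, 2, 22 and 1 counts against 3 over the PBS group, all in library 8, and its pooled ratio of 6.29 (2.08 to 31.1) became 2.66 (0.812 to 13.8) without library 10. Clec4e had 3, 186, 0, 29 and 7 counts in the caerulein libraries and 2, 3, 4, 3 and 1 in the PBS libraries. It was the one gene of the 9 detected in 5 of 5 PBS libraries. Its pooled ratio was 3.80 (2.18 to 7.25), and 0.958 (0.501 to 1.96) without library 10. The mean difference in log2 normalised CPM for Clec4e was 0.022 and became -0.17 when all 20 libraries were scaled together.

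The levels of the 2 tissues can be set side by side per kilobase of exon on a scale fitted to all 20 libraries. DNFB skin had the highest mean for 7 of the 9 genes and caerulein pancreas for Tyrobp and Fcer1g, but without caerulein library 10 for Tyrobp alone, at 20.5 against 20.1 normalised CPM per kilobase in DNFB skin. In DNFB skin, Fcer1g averaged 26.8, Il1b 24.3, Arg1 21.98, Tyrobp 20.1, G0s2 14.8 and Acod1 12.5 normalised CPM per kilobase, ahead of Clec7a at 7.496, Clec4d at 4.34 and Clec4e at 3.72. In caerulein pancreas the adaptors led, with 55.0 ± 66.7 for Fcer1g and 48.6 ± 64.0 for Tyrobp (SD, n = 5), ahead of Il1b at 17.9 ± 34.6 and Acod1 at 2.84 ± 4.44. Without library 10 these means were 25.7 ± 15.03 for Fcer1g, 20.5 ± 14.7 for Tyrobp, 2.47 ± 3.08 for Il1b and 0.911 ± 1.21 for Acod1 (SD, n = 4). Of the receptors in caerulein pancreas, Clec7a had the lowest mean per kilobase with library 10, and without it Clec4e did, at 0.977 against 1.26 for Clec7a and 1.92 for Clec4d. For every gene, each group overlapped the next group in the order of levels, so no neighbouring levels differed beyond their spread.

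A view that needs no scaling is the number of counts of each gene per count of the 2 adaptors in the same libraries, chosen after the values had been seen. The adaptor counts summed to 446 in acetone, 438 in DNFB, 31 in PBS and 1124 in caerulein libraries, and of the 446 acetone counts 438 were in libraries 11 and 12, so the acetone values below are values of these 2 libraries. Acod1 stood at 0.0112 counts per adaptor count in acetone skin (95% exact counting interval 0.00362 to 0.0264) and at 0.861 (0.748 to 0.9901) in DNFB skin, 76.8 times the acetone value. The 5 DNFB libraries ranged from 0.587 to 1.69 for Acod1, and acetone libraries 11 and 12 were at 0 and 0.0146. Counts of Il1b per adaptor count were 0.0381 (0.0220 to 0.0617) in acetone and 1.13 (0.992 to 1.29) in DNFB skin, those of Arg1 0.0807 and 1.55, and those of G0s2 0.00897 and 0.288. The other 3 acetone libraries held 8 adaptor counts, and over these the ratios were 0.25 (0.0259 to 1.25) for Acod1 and for Il1b, 0.75 (0.214 to 2.46) for Arg1 and 0.125 (0.00282 to 0.932) for G0s2. The DNFB values were then 3.44, 4.52, 2.07 and 2.30 times as high, and for Acod1, Il1b, Arg1 and G0s2 the counting intervals of the 2 groups overlapped. The 2 acetone libraries with the most adaptor RNA had 0 to 19 counts of each of the 4 effector genes, and in bulk RNA fewer cells of a type and less RNA per cell cannot be told apart.

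**Figure D2:**
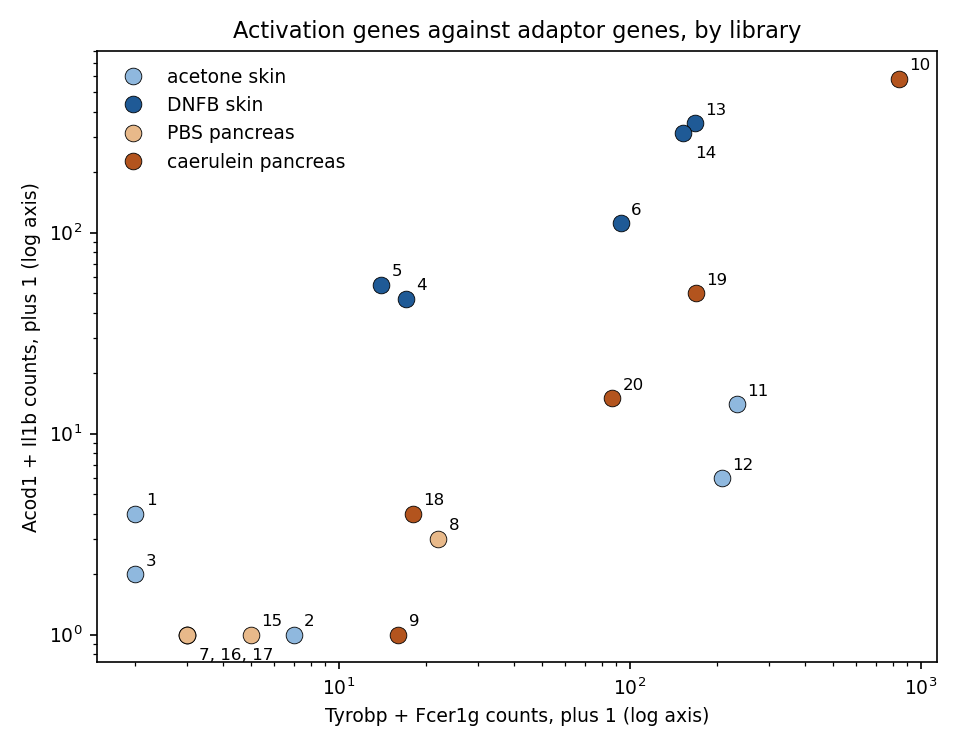
Summed Acod1 and Il1b counts against summed Tyrobp and Fcer1g counts, each plus 1 on a log axis, with 1 point for each library (numbers are the label numbers, colours the 4 groups). Acetone libraries 11 and 12 have 232 and 206 adaptor counts with 13 and 5 counts of Acod1 and Il1b, whereas DNFB libraries 4 and 5 have 16 and 13 adaptor counts with 46 and 54.

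The lectin receptors were also higher in DNFB skin per adaptor count over all libraries. Clec7a was 8.45 times, Clec4e 7.55 times and Clec4d, on 1 acetone count, 68.2 times as high in DNFB as in acetone skin. Without acetone libraries 11 and 12 this difference was 1.29 times for Clec7a and turned round for Clec4e, at 1.125 (0.385 to 3.35) in acetone against 0.491 (0.415 to 0.579) in DNFB skin, while Clec4d had 0 counts. Over all libraries, caerulein pancreas lay between the skin groups for all but Clec7a. It held 0.0996 Acod1 counts, 0.478 Il1b counts and 0.538 Arg1 counts per adaptor count. Clec7a was lowest in caerulein pancreas, at 0.0560 (0.0428 to 0.0723) against 0.0762 (0.0521 to 0.108) in acetone skin, with overlapping intervals. Without acetone libraries 11 and 12, on 8 adaptor counts, acetone skin was above caerulein pancreas for Acod1, Arg1, G0s2, Clec7a and Clec4e. Il1b, at 0.25, and Clec4d, at 0, stayed below the caerulein values. In PBS pancreas, on 31 adaptor counts, Arg1 (0.613), Clec7a (0.0645), Clec4d (0.0968) and Clec4e (0.419) were above the caerulein values. Acod1, Il1b and G0s2 were below them. Without caerulein library 10 the Il1b value was 0.154 (0.109 to 0.212), the Arg1 value 0.150 (0.107 to 0.208), the G0s2 value 0.0175 (0.00563 to 0.0413) from 0.0827, the Clec7a value 0.0979 (0.0639 to 0.145) and the Acod1 value 0.0769 (0.0475 to 0.119). Relative to the adaptors, DNFB skin held 8.64 times the Acod1 but 2.37 times the Il1b of caerulein pancreas, and 11.5 times the Clec7a. Without caerulein library 10 these were 11.2 times the Acod1, 7.35 times the Il1b and 6.58 times the Clec7a, and Arg1 went from 2.89 to 10.3 times and G0s2 from 3.48 to 16.5 times.

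**Figure D3:**
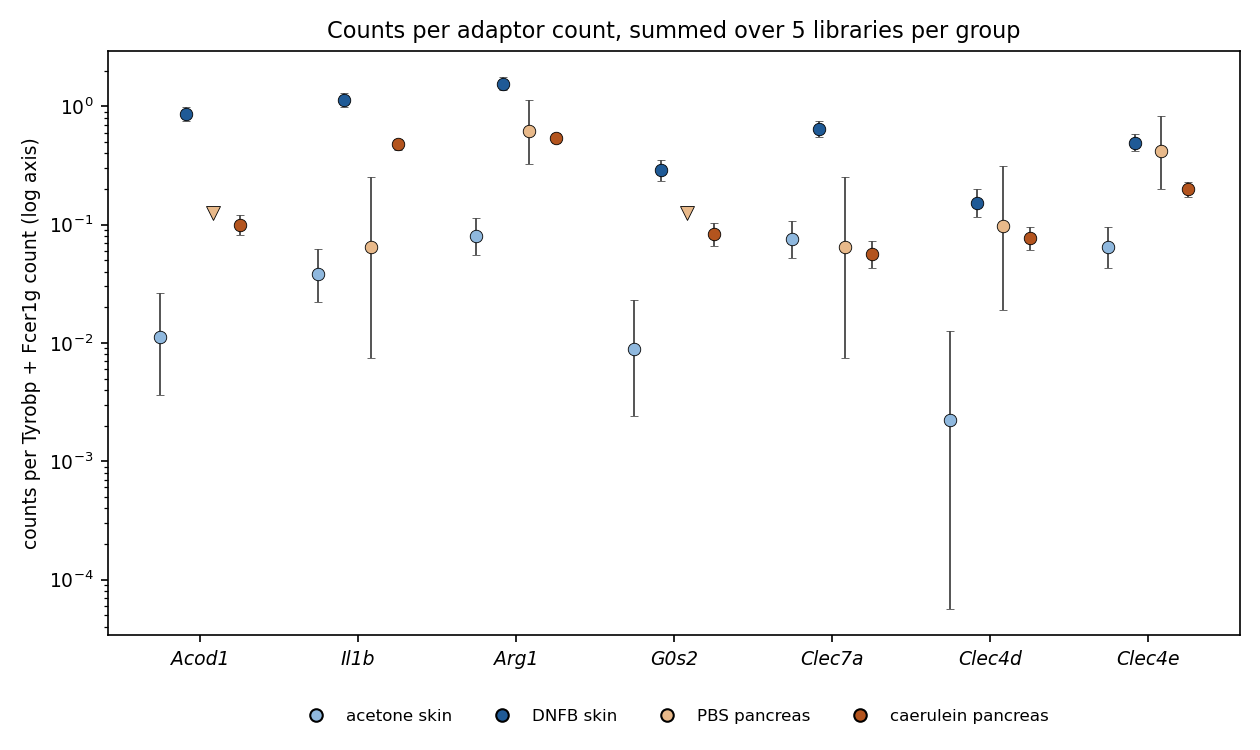
Counts of 7 genes per count of Tyrobp and Fcer1g, summed over the 5 libraries of each group, on a log axis. Points are pooled ratios, bars 95% exact counting intervals that do not include the spread between libraries, and downward triangles the upper limits for PBS groups with 0 counts. DNFB skin lies above acetone skin for each gene, where acetone libraries 11 and 12 hold 438 of the 446 adaptor counts (without them Clec4e is higher in acetone), and the PBS intervals are wide, on 31 adaptor counts.

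Label numbers run from 1 to 10 and from 11 to 20 across the groups, and each run holds libraries of every group. The labels do not say what the runs are. Within numbers 1 to 10 the difference in mean log2 normalised CPM between DNFB and acetone skin was 3.62 for Acod1, 4.42 for Il1b and 3.77 for Tyrobp. Within numbers 11 to 20 it was 6.77, 6.11 and 0.78. Acod1 and Il1b were higher in DNFB skin in both runs, and the difference of Tyrobp was larger in the first. In pancreas Acod1 was higher with caerulein by 2.59 and 1.98 and Il1b by 2.72 and 2.80 in the 2 runs. Clec4e was at 1.93 in the first and -1.25 in the second. The first run held 4 pancreas libraries, among them caerulein libraries 9 and 10. Library 9 had 0 counts of Acod1, 0 of Il1b and 3 of Clec4e, and library 10 had 90, 493 and 186. The first-run pancreas values thus rest on caerulein library 10.

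Across the 20 libraries, with the group means subtracted from log2 normalised CPM, the 36 pairs of genes had Pearson correlations from 0.044 to 0.856 with a median of 0.506. The points share their library, its depth and the low counts of several genes, and the correlations are a description. Il1b with Clec4d had the highest value at 0.86, followed by Acod1 with Il1b at 0.84 and Acod1 with G0s2 at 0.82, and Arg1 with Clec7a the lowest. The adaptors correlated with each other at 0.58 and with the other 7 genes at a median of 0.429. Tyrobp also correlated with the log2 number of other counts in a library at 0.684, Fcer1g at 0.397 and Acod1 at 0.105. Clec4d and Clec4e, neighbours in the genome, correlated at 0.45.

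**Figure D4:**
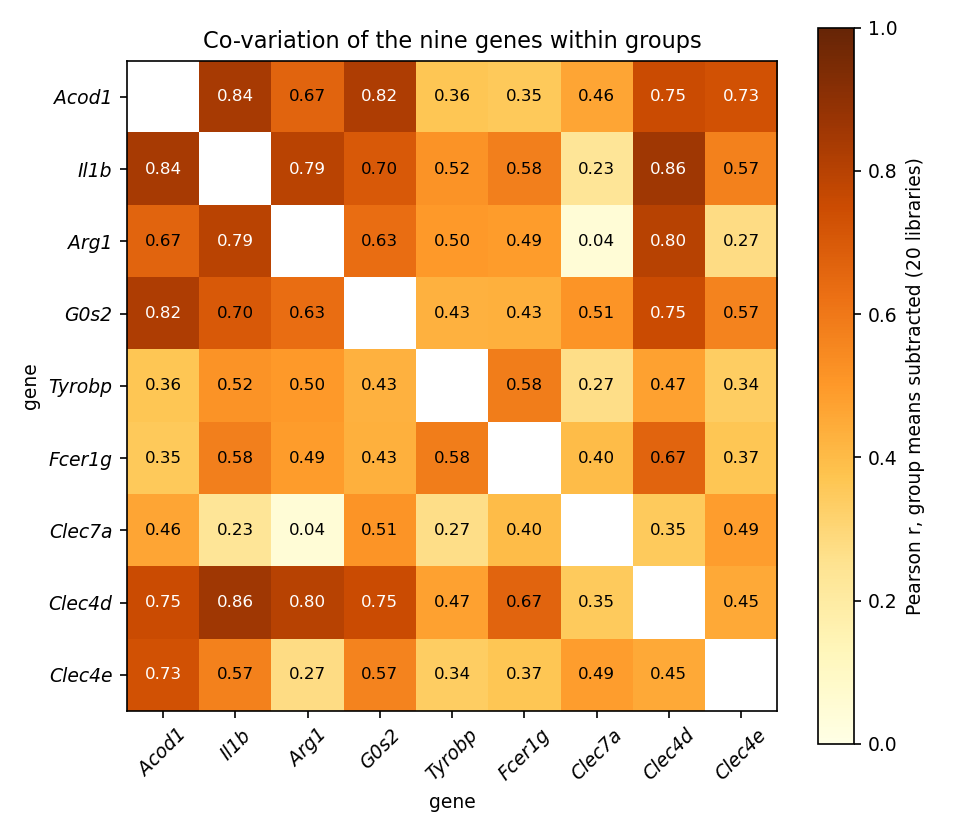
Pearson correlation of each pair of the 9 genes over 20 libraries after group means were subtracted from log2 normalised CPM (colour scale 0 to 1, value in each cell). Acod1, Il1b, G0s2 and Clec4d form the darkest block and the row of Clec7a is the palest.

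Over the 15542 genes with at least 3 counts in at least 8 libraries, the pattern of Acod1 was most like that of Il1b (r = 0.838), followed by B3gnt9 at 0.824, the arginine transporter gene Slc7a2 at 0.820, S100a8, a subunit of the neutrophil protein calprotectin, at 0.809, and the transcription factor gene Zeb2 at 0.799. The pattern of Il1b was most like that of Cd14, a co-receptor for bacterial lipopolysaccharide, at 0.889, followed by the cytokine gene Tnf at 0.867, the oxidase subunit gene Ncf1 at 0.862, Spi1, which encodes PU.1, at 0.861, and Clec4d. These are values over 20 libraries that share depth and composition.

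The other genes of the pathways were counted from 6 lists. In skin none of the tested genes of any list passed the edgeR test. The list of the IL-1 axis had 0 called of 7 tested, 1 at an unadjusted p under 0.05, with a median log2 fold change of -0.41 beside 0.023 for all genes tested. Its most abundant genes were Il1rn, the natural antagonist of the IL-1 receptor, with 25.4 ± 12.6 in acetone and 98.5 ± 70.5 normalised CPM in DNFB skin, and the inflammasome adaptor gene Pycard, with 47.2 ± 14.9 and 30.5 ± 2.98 (SD, n = 5 each). The list of arginine and immunometabolism had 0 of 19 called, 2 unadjusted, with a median of 0.085. Its most abundant genes, Ldha (lactate dehydrogenase) and Sat1 (polyamine acetylation), had log2 fold changes of 0.37 and 0.34 with standard errors of 0.73 and 0.76.

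The list of C-type lectin receptors and signalling had 0 of 10 called in skin, 1 unadjusted, and a median log2 fold change of -0.77, with Malt1 at 0.20 and Nfkb1 at -0.98, both signalling genes downstream of the receptors. The list of ITAM partners had 0 of 7 called, 1 unadjusted, and a median of -0.13, with the activating receptor gene Klrk1 at 0.995 and the inhibitory Fc receptor gene Fcgr2b at -0.13. The lipid droplet list, which holds the partners of G0s2, had 0 of 9 called, 2 unadjusted in opposite directions, and a median of -0.026. Fabp5, a fatty acid binding protein gene, stood at 261 ± 95.5 in DNFB against 47.6 ± 33.6 normalised CPM in acetone skin (SD, n = 5 each), with an edgeR adjusted p of 0.379. The list of myeloid cytokines and NF-kB targets had 0 of 9 called, 4 unadjusted, 2 in each direction. Cxcl2, a neutrophil chemokine gene, averaged 77.3 ± 92.6 against 5.53 ± 4.08, with an edgeR adjusted p of 0.187, and Nfkbia, the inhibitor of NF-kB, 70.1 ± 36.3 against 84.1 ± 80.4. DESeq2, without the edgeR low count filter, called 6 genes of the 6 lists in skin.

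In pancreas 4 of the 6 lists had no gene past the filter, and the others had 1 and 2. Ldha rose in caerulein pancreas, from 4.14 ± 5.05 to 50.7 ± 44.9 normalised CPM (SD, n = 5 each), a log2 fold change of 3.48 with a standard error of 0.92 and an edgeR adjusted p of 0.0241. Nfkbia rose from 8.01 ± 10.003 to 85.0 ± 72.3, a log2 fold change of 3.31 with a standard error of 0.86 and the same adjusted p. Leaving out caerulein library 10, or any of PBS libraries 7, 15, 16 and 17, left 0 list genes called, and DESeq2 called 23. The beta-2 integrin gene Itgb2 of the ITAM list, not tested, had 0, 8, 0, 0 and 1 counts in the PBS libraries and 2, 389, 7, 109 and 50 in the caerulein libraries. Plin2, a lipid droplet coat gene, averaged 3.74 ± 4.78 in PBS and 10.4 ± 9.71 in caerulein pancreas. Pycard averaged 5.25 ± 4.93 and 9.95 ± 5.55, Il1rap, the IL-1 receptor accessory chain, 6.82 ± 5.27 and 5.82 ± 5.05, and Cd36, a fatty acid receptor, 3.44 ± 2.53 and 6.13 ± 3.81. Malt1 averaged 12.6 ± 4.20 and 8.15 ± 3.58, Nfkb1 5.17 ± 2.60 and 7.87 ± 4.58, and Klrk1 9.57 ± 7.45 and 8.78 ± 8.56 (normalised CPM, PBS then caerulein, SD, n = 5 each, not tested).

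Sums of leukocyte markers are given as the range over the libraries of each group. Neutrophil markers summed to 5.46 to 51.6 normalised CPM over the acetone libraries and 41.7 to 843 over the DNFB libraries. In these groups 14 and 15 of 15 markers were detected, with Camp at 0 in acetone skin. S100a9 and S100a8 were the most abundant of these markers in DNFB skin and the only 2 tested. Which skin cells held their RNA was not tested. S100a8 rose in DNFB skin, from 1.70 ± 1.32 to 106 ± 119 normalised CPM (SD, n = 5 each), with a log2 fold change of 6.20, a standard error of 1.06 and an edgeR adjusted p of 0.0460, the other of the 2 genes called higher besides Acod1. S100a9 averaged 0.967 ± 1.44 and 121 ± 165, with an edgeR adjusted p of 0.0555. No gene was called higher in skin when acetone library 1, 2, 11 or 12 or DNFB library 5 or 13 was left out. In pancreas neutrophil markers summed to 7.85 to 28.8 in PBS, with S100a8, Mpo and Elane at 0, and 14.8 to 167 in caerulein libraries. Hdc was the most abundant of them in both pancreas groups, at a mean of 2.71 in PBS and 23.2 in caerulein libraries. S100a9 was next in caerulein libraries at 11.7, and 0 of these markers were tested in pancreas. The part of neutrophils in the levels of the 9 genes was not tested.

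Monocyte and macrophage markers, with 17 of 17 detected in each group, summed to 67.7 to 1128 normalised CPM in acetone and 76.2 to 467 in DNFB skin, and to 43.9 to 247 in PBS and 132 to 1977 in caerulein pancreas. In acetone skin Lyz2 (mean 203) and C1qb (46.1) were the most abundant, and in DNFB skin Cd14 (77.7) and Lyz2 (49.9). Of the 8 markers tested in skin 0 were called, with 1 higher and 2 lower at an unadjusted edgeR p under 0.05. Lyz2, the macrophage and neutrophil lysozyme, had 2117 and 1942 counts in acetone libraries 11 and 12 and 6 to 18 in the other 3, and 22 to 133 in the DNFB libraries. Lyz2 was thus high in the same acetone libraries as the adaptors. H2-Ab1, a class II gene of antigen-presenting cells, had 802 and 1475 counts in these 2 libraries. Langerhans and dendritic cell markers summed to 62.3 to 1020 in acetone and 117 to 193 in DNFB skin, with 11 of 11 detected in both. In pancreas Lyz2 rose, from 16.8 ± 27.2 to 424 ± 470 (SD, n = 5 each), with a log2 fold change of 4.60, a standard error of 1.08 and an edgeR adjusted p of 0.0166. Caerulein library 10 had 5722 of its counts. The part of macrophages and dendritic cells was not tested.

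Markers of other cell types also passed the edgeR test in caerulein pancreas. Langerhans and dendritic cell markers summed to 32.4 to 75.5 normalised CPM in PBS and 89.7 to 644 in caerulein libraries, with 10 of 11 detected in both and Cd207 at 0, and 4 of 4 tested genes rose, the class II genes H2-Ab1, H2-Aa and H2-Eb1 and their chaperone gene Cd74. B cell markers summed to 23.4 to 146 and 48.5 to 1989, with 7 of 7 detected, and Ighm rose, 1 of 2 tested, while Igkc had an edgeR adjusted p of 0.0507. Fibroblast and endothelial markers summed to 26.4 to 487 in PBS, with Cdh5 at 0, and 142 to 1120 in caerulein libraries, and Dcn rose, 1 of 4 tested. Erythrocyte markers summed to 604 to 3174 and 1097 to 4209, with 5 of 5 detected, and the globin genes Hbb-bs and Hbb-bt rose, 2 of 4 tested. The part of these cells in the values of the 9 genes was not tested.

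Mast cells also use the Fcer1g adaptor, in the high-affinity IgE receptor. Mast cell markers summed to 22.8 to 80.6 normalised CPM in acetone and 23.9 to 52.7 in DNFB skin, with 10 of 10 detected and none called, and to 2.93 to 27.0 in PBS, with Cpa3 at 0, and 8.58 to 31.1 in caerulein pancreas. Of the acinar markers 11 of 12 tested fell in caerulein pancreas, Sycn (zymogen granules) with a log2 fold change of -5.80, a standard error of 1.11 and an edgeR adjusted p of 0.00967. Over all tested pancreas genes 77 were higher and 38 lower, and with scaling by library totals only the split was 554 and 18, with the median of all genes at 1.86 on the log2 scale in place of -0.0026. The part of the acinar loss in the normalised pancreas values was not tested, and the ratios per adaptor count do not use that scaling.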

How the data were processed

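The deposited table holds estimated counts per gene, which the authors made from Smart-Seq2 libraries without molecular identifiers by alignment with STAR 2.5.3 and quantification with RSEM 1.3.1 on GRCm38, and which are not normalised (94.7% of the values are whole). The labels also list DESeq2 1.24.0. Counts were rounded, and 55144 of 55471 gene IDs were given symbols from GENCODE M21. Each tissue was fitted on its own (5 libraries against 5) with edgeR 4.0.16, filterByExpr with a minimum count of 10, TMM scaling, the quasi-likelihood test and Benjamini-Hochberg adjustment at 0.05, in R 4.3.3. The script was tested on simulated data. DESeq2 1.42.0 was an alternative, along with other scalings, filters and sets of libraries. Normalised CPM is CPM over the TMM-scaled library size. Pooled ratios carry exact Clopper-Pearson counting intervals from SciPy 1.17.1. Bounds against a group at 0 use 3 counts over that group and take the counts of the other group as exact.

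The 9 genes and the lists were chosen with earlier results of these data known. Besides the 9, genes were named by rule: pathway list genes past the threshold (at most 4 per direction), or the 2 most abundant where none passed, the 5 genes most like Acod1 and Il1b, and genes among the 2 most abundant of a marker list in a group. Not all of these most abundant marker genes are named. Camp, Mpo, Elane, Cpa3, Cd207 and Cdh5 are named as markers at 0, and H2-Aa, H2-Eb1 and Hbb-bt, outside the rule, as markers that passed the test. Of 278 list genes 277 were matched, 2 by an older symbol. Satellite-like genes are those with a transcript in which at least 50% of the 15-base words occur in Gm10800, Gm10801 or Gm21738, on either strand. Depth per library is given above.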

Additional observations from a re-analysis of the deposited data

Results flagged for a closer look

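A test for a single library far from the other 4 of its group was applied to 42 groups of log2 values. These were values of the 9 genes, Ldha and Nfkbia, and 4 groups were marked. For normally distributed values about 1 in 20 groups would be marked, or 2.1 here. In PBS pancreas, library 8 held the only Il1b counts (2) and the only Clec4d counts (3), so its gap to the next library was the group's whole range (1.0 in both). In acetone skin the single Clec4d count was in library 12, also a gap of 1.0. Clec7a had 0 counts in acetone library 1 and 1 to 16 in the others, a gap of 0.715 of the range, against a critical value of 0.71. The first 3 rest on 1 to 3 counts in a single library, where ties at 0 in the others fix the gap at 1.0. The rate of 1 in 20 does not hold with such ties, so 4 against 2.1 is no comparison with chance.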

How the results depend on the processing

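With all genes, DNFB against acetone gave 2 genes higher and 1 lower. The numbers were 0 and 0 with scaling by library totals only, 40 and 68 with no filter, 38 and 40 by DESeq2 and 17 and 8 with all 20 libraries in 1 fit. Genes called higher were 5 without satellite-like genes, 11 with the label-number run as a covariate and 0 without acetone libraries 11 and 12. With each library left out in turn they ranged from 0 to 19 higher and 0 to 15 lower. Other pathway genes called in skin were 0, and 6 with no filter, 6 by DESeq2 and 1 with the run as a covariate (0 to 0 with a library left out). Caerulein against PBS gave 77 higher and 38 lower, 554 and 18 with library totals only, 1237 and 60 with no filter, 641 and 94 by DESeq2. The lower genes were 21 with all 20 libraries in 1 fit and 20 with the run as a covariate, and leaving out 1 library gave 11 to 192 higher and 3 to 111 lower. Pathway genes called in pancreas were 2, and 37 with no filter, 23 by DESeq2, 5 with all 20 libraries in 1 fit and 0 to 6 with a library left out. With no filter more genes were tested; the other causes were not tested.

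Of 297 values of the mean log2 difference of the 9 genes under the alternatives, 288 kept their sign within 1 SD. Each run of label numbers holds as many treated as control libraries of a tissue. The values with the run as a covariate therefore equal the main values and are no check. The 9 that changed sign were all Clec4e in pancreas, 0.022 as reported, -0.16 without satellite-like genes, -0.17 with all 20 libraries scaled together and -0.65 to 0.64 with a library left out. The cause was not tested. Pooled ratios, adaptor ratios and levels without the libraries that stand apart were added after seeing the data. No paired analysis was possible because the label numbers never repeat between groups. Depth limits all statements on PBS pancreas, where the 2 adaptors had 31 counts in all.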

Other observations

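The patterns of the other 7 genes were each most like a different gene over the 20 libraries, with group means subtracted. Arg1 was most like Dapk1 (r = 0.868), G0s2 most like Trem1, a myeloid activating receptor gene, at 0.828, and Tyrobp most like Cybb, the catalytic subunit gene of the phagocyte oxidase, at 0.830. Fcer1g was most like the kinase gene Pim1 at 0.912, Clec7a most like Naa60 at 0.805, Clec4d most like Spi1 at 0.939 and Clec4e most like Slfn4 at 0.839. Among the 100 genes most like G0s2 were 5 of the other 8, and among those most like Tyrobp, Fcer1g or Clec7a were 0. These values describe 20 libraries that share depth and composition, and these genes were named after their values were seen.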
